A study of Mus musculus with 4 samples.

Results

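Cadherins and protocadherins were followed in the mandible of the E11.5 mouse embryo, dissected whole, at a time when the mandible is a bud of mesenchyme covered by epithelium. A gene was included when its current symbol was Cdh followed by a number or began with Pcdh, and Cdh1 and Cdh5 were kept apart as markers of epithelium and endothelium. This rule uses names and no measured value. It found 54 genes of the 16637 genes named on the array, 19 of them cadherins and 35 protocadherins, read by 81 of 29922 probes. A gene was represented by its probe with the highest mean intensity over all 4 arrays.

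The Bmp4 OE group held 2 arrays of mandibles in which doxycycline had induced conditional Bmp4 overexpression for 24 hours; Bmp4 is a secreted signal of the bone morphogenetic protein family. The control group held 2 arrays of wild-type mandibles of the same stage, and both groups had the C57BL/6 background. The promoter that drives the transgene is not given in the sources used here, nor is it stated whether control embryos received doxycycline, so effects of the drug, the genotype and Bmp4 cannot be told apart. Nothing says whether arrays of a group came from separate embryos, single or pooled, so a p-value here speaks of the scatter among these 4 samples alone, and that scatter may be technical. In whole tissue, fewer cells of a type and less RNA per cell cannot be told apart.

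Cadherins are membrane proteins that join cells through calcium-dependent binding of their extracellular repeats. Classical cadherins mostly bind the same cadherin on the next cell and are tied to actin through catenins, and type I and type II members differ in the residues at their binding tip. Protocadherins have more of these repeats and no catenin-binding tail. Their clustered genes are expressed in combinations that are best known from neurons, where they serve recognition of self, while the non-clustered delta protocadherins act in cell sorting, migration and neural wiring. In facial mesenchyme, which comes largely from the neural crest, cadherin switches accompany the change from epithelial to migratory cells and the condensation of skeletal precursors.

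Bmp4, the induced gene, read 15.27 and 15.31 in Bmp4 OE, against 11.96 and 12.07 in control (normalised log2 intensity, the scale of all levels given here). It was 9.68-fold higher in Bmp4 OE (limma, adjusted p = 0.00137). All 4 arrays shared 1 distribution, with a lower quartile of 6.79, a median of 7.95 and a maximum of 16. Arrays of the same group correlated across probes with r = 0.993, and arrays of different groups with r between 0.974 and 0.981. Over 10 mesenchyme markers the mean was 12.23 and 12.10 in Bmp4 OE, against 12.22 and 12.17 in control. Vim stood at the maximum of 16 on all 4 arrays, and without it the mean was 11.81 and 11.67 in Bmp4 OE, against 11.80 and 11.74 in control. Of these 10, Prrx2 rose, Col1a1 fell and 8 did not pass the test.

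Of the 54 genes, 5 rose and 4 fell in Bmp4 OE. A gene was called when limma's p, adjusted by the Benjamini-Hochberg method over all probes, was under 0.05. The genes that rose were Pcdhga2, Pcdha1, Pcdh20, Cdh26 and Cdh8, and the genes that fell were Pcdh19, Cdh2, Pcdh10 and Cdh10. Rises made up 9.26% of the members, against 7.39% of all named genes, and falls 7.41% against 9.54%. In both directions together 16.7% of members were called, against a background of 16.9%, so the family as a whole was called about as often as any gene. Changes were moderate: log2 fold changes, given throughout as Bmp4 OE minus control, ran between -0.895 for Pcdh19 and 1.165 for Pcdhga2. Only Pcdhga2 passed the study's own threshold (at least 2-fold, unadjusted p under 0.05), which is 1.85% of members against 3.32% of all genes.

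Direction was less even than the calls. Both Bmp4 OE arrays read above both control arrays in 25 members (46.3%, against 31.0% of all genes) and below them in 10 (18.5%, against 32.3%), and the groups overlapped in 19. The median log2 fold change was 0.135, with 36 positive and 18 negative, against a median of 0.00 over all named genes. Genes of the protocadherin clusters share sequence and lie side by side and are not independent. Among the 24 clustered genes 11 separated upward and 1 downward, and among the other 30 genes 14 separated upward and 9 downward. The share that separated upward was thus similar inside and outside the clusters, and the share that separated downward was lower inside them.

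With all 4 arrays 17 of the 54 members had an unadjusted p under 0.05 in limma (31.5%, against 36.4% of all named genes). With any 1 array left out the fit keeps 1 residual degree of freedom. Such a fit cannot show whether a call holds. With 1 of the 2 Bmp4 OE arrays left out, the log2 fold change was -0.80 or -0.84 for Cdh2 and 1.425 or 0.905 for Pcdhga2. Of the 5 called genes with several probes, only Cdh2 and Cdh8 had all probes moving in the same direction.

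**Figure D1:**
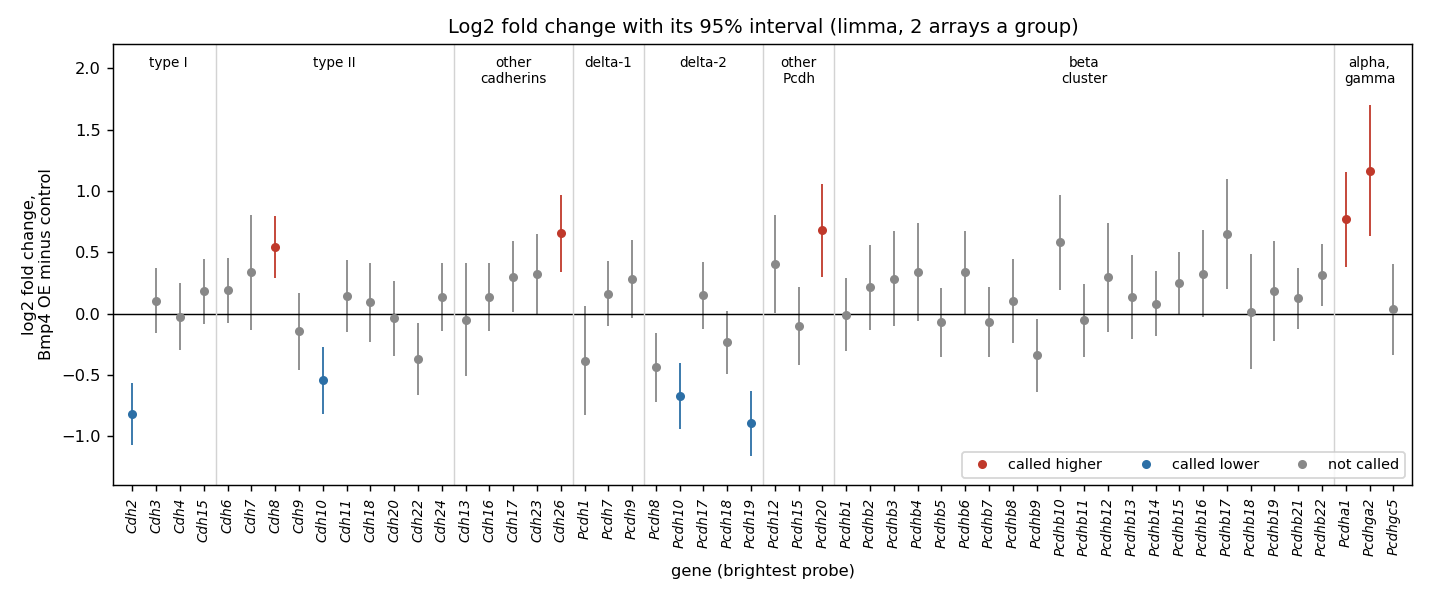
Log2 fold change, Bmp4 OE minus control, of the brightest probe of each of the 54 genes, grouped by subfamily along the horizontal axis. Points are limma estimates and bars their 95% intervals, with 2 arrays a group; red genes rose, blue genes fell and grey genes did not pass an adjusted p of 0.05. The 4 falls lie among type I, type II and delta-2 genes, and the largest rise, 1.165, is that of Pcdhga2.

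Among the 4 type I cadherins measured, Cdh2 fell and the other three did not pass the test. Cdh2 encodes N-cadherin, the classical cadherin of neural crest derived mesenchyme, nerve and muscle. It read 9.74 and 9.78 in Bmp4 OE, against 10.59 and 10.57 in control, so both Bmp4 OE arrays lay below both controls. It was 1.77-fold lower, with a log2 fold change of -0.82 ± 0.10 standard error (adjusted p = 0.0115 in limma). Both further Cdh2 probes also fell. One of them read 8.82 and 8.63 in Bmp4 OE, against 9.53 and 9.44 in control (1.69-fold lower, limma adjusted p = 0.0184). The other read 8.69 and 8.44 in Bmp4 OE, against 9.57 and 9.40 in control (1.89-fold lower, limma adjusted p = 0.0163). No other member had more than 1 called probe.

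Cdh3, or P-cadherin, an epithelial type I cadherin, read 10.29 and 10.34 in Bmp4 OE, against 10.15 and 10.27 in control (log2 fold change 0.105, limma adjusted p = 0.545). Its groups did not overlap, but the gap was smaller than the spread within either group. For Cdh15, the M-cadherin of muscle precursors, the values were 8.43 and 8.54 in Bmp4 OE, against 8.27 and 8.34 in control (limma adjusted p = 0.301). Cdh4, or R-cadherin, best known from retina and nerve, overlapped between groups, with 7.87 and 8.03 in Bmp4 OE, against 7.97 and 7.98 in control (limma adjusted p = 0.902). The 95% intervals of these 3 log2 differences reached from -0.3 to 0.446.

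Cell-type markers were read beside these genes. Over 12 epithelial markers the mean log2 intensity was 10.70 and 10.81 in Bmp4 OE, against 10.57 and 10.46 in control, and 4 of the 12 rose while 2 fell. Cdh1, or E-cadherin, was the type I cadherin of that list and read 12.35 and 12.21 in Bmp4 OE, against 11.34 and 11.39 in control (1.89-fold higher, limma adjusted p = 0.0109). Krt8 and Krt18, keratins of simple epithelium and surface periderm, rose 2.34-fold and 2.29-fold, and Krt14, a keratin of basal epithelium, fell (limma, adjusted p = 0.00667, 0.00869 and 0.0142 in that order). Cdh1 and Cdh2 therefore moved in opposite directions in the same samples. Over 10 muscle markers the mean was 8.39 and 8.51 in Bmp4 OE, against 8.25 and 8.21 in control, with 2 rises (Des and Actc1). Over 5 measured markers of neural crest and Schwann cells it was 7.75 and 7.66 in Bmp4 OE, against 8.02 and 7.99 in control, with 1 fall (Ednrb). The part of these cell types in the cadherin values was not tested.

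Type II cadherins are the larger classical group and mark sorted cell populations in mesenchyme and nervous system. Of 12 listed, 10 were measured: Cdh8 rose, Cdh10 fell and 8 did not pass the test. Cdh10, known from brain, read 7.28 and 7.30 in Bmp4 OE, against 7.91 and 7.76 in control, with no overlap (1.46-fold lower, log2 fold change -0.545 ± 0.109 standard error, adjusted p in limma = 0.0323). Its other 2 probes did not pass, and 1 of them had the opposite sign (limma, adjusted p = 0.359 and 0.886). Cdh8, also a brain cadherin, read 6.79 and 6.73 in Bmp4 OE, against 6.19 and 6.24 in control (1.46-fold higher, log2 fold change 0.545 ± 0.102 standard error, adjusted p in limma = 0.0279). Its group means lay under the arrays' lower quartile, a range in which intensities are compressed, and its second probe did not pass (limma adjusted p = 0.442). Both calls in this group thus came from 1 probe each.

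Cdh11, the OB-cadherin, is the type II cadherin best known from mesenchyme and bone-forming cells. Its brightest probe read 12.56 and 12.67 in Bmp4 OE, against 12.56 and 12.38 in control, where 1 array of each group had the same value. The log2 fold change was 0.145 with a 95% interval of -0.148 to 0.438 (limma, adjusted p = 0.444). The second Cdh11 probe did separate the groups, with 12.39 and 12.20 in Bmp4 OE, against 11.80 and 11.78 in control (1.42-fold higher, limma adjusted p = 0.0429). Both probes had a positive sign, and 1 of them passed.

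The remaining type II genes did not pass. Cdh22, a cadherin of brain, came nearest: it read 8.06 and 8.27 in Bmp4 OE, against 8.52 and 8.55 in control (log2 fold change -0.37, limma adjusted p = 0.0917). Cdh6, which marks early neural crest and kidney, read 9.58 and 9.61 in Bmp4 OE, against 9.47 and 9.34 in control (limma adjusted p = 0.279). Cdh24 read 8.28 and 8.40 in Bmp4 OE, against 8.14 and 8.27 in control (limma adjusted p = 0.457). Thus Cdh22 lay lower and Cdh6 and Cdh24 higher on both Bmp4 OE arrays, by amounts that did not pass the test. Cdh9 gave 6.33 and 6.32 in Bmp4 OE, against 6.60 and 6.34 in control (limma adjusted p = 0.477), where 1 control array lay next to both Bmp4 OE arrays. Cdh7, expressed by migrating neural crest in chick, had values of 7.43 and 6.97 in Bmp4 OE, against 7.0 and 6.73 in control (limma adjusted p = 0.277). The groups overlapped there, as they did for Cdh18 and Cdh20. Cdh18 gave 7.12 and 7.22 in Bmp4 OE, against 7.21 and 6.95 in control (limma adjusted p = 0.68). In Cdh20 the readings were 7.29 and 7.36 in Bmp4 OE, against 7.25 and 7.48 in control (limma adjusted p = 0.856).

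Of 5 cadherins outside the classical types, Cdh26 rose and 4 did not pass. Cdh26 encodes a cadherin reported in human gastrointestinal and airway epithelium. It read 7.48 and 7.31 in Bmp4 OE, against 6.64 and 6.84 in control, with no overlap (1.57-fold higher, log2 fold change 0.655 ± 0.127 standard error, adjusted p in limma = 0.0298). Of the 12 epithelial markers beside it, Cdh1, Krt8, Krt18 and Cldn6 rose, Krt14 and Krt5 fell and 6 did not pass, among them Epcam at a log2 fold change of -0.41. The part of epithelium in the Cdh26 values was not tested. Cdh17, the LI-cadherin of intestine, read 8.88 and 9.04 in Bmp4 OE, against 8.72 and 8.60 in control (limma adjusted p = 0.14). Cdh23, part of the tip link of inner-ear hair cells, read 7.97 and 8.13 in Bmp4 OE, against 7.61 and 7.85 in control (limma adjusted p = 0.159). Both lay higher on both Bmp4 OE arrays without passing. Cdh16, the kidney cadherin, had a log2 fold change of 0.135, also without overlap between groups (limma adjusted p = 0.454). Cdh13, a cadherin held by a lipid anchor, read 7.90 and 8.03 in Bmp4 OE, against 8.27 and 7.76 in control, so the controls lay on either side of both Bmp4 OE arrays (limma adjusted p = 0.883).

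**Figure D2:**
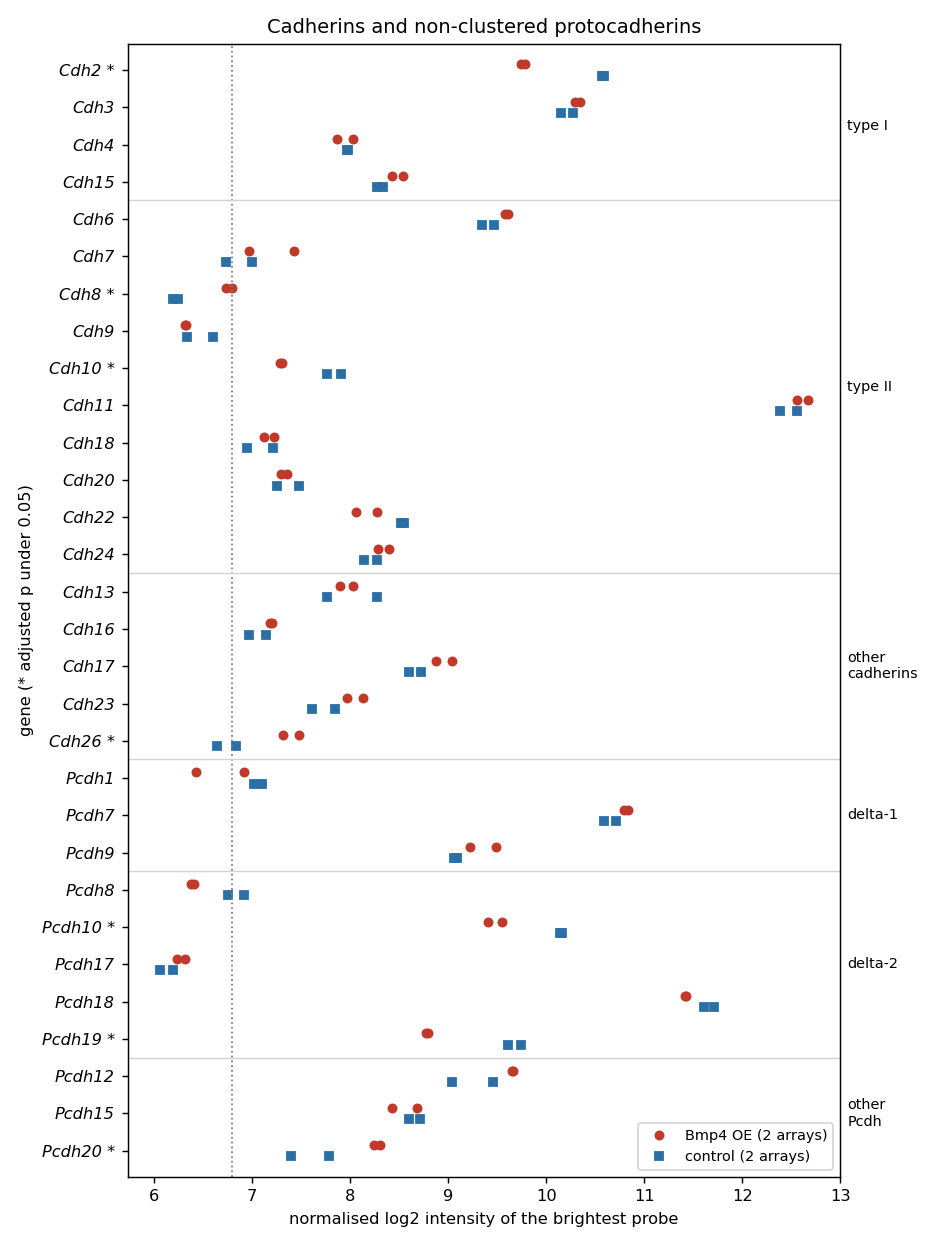
Normalised log2 intensity of the brightest probe of the 30 members outside the protocadherin clusters, with genes grouped by subfamily down the page. Red circles are the 2 Bmp4 OE arrays, blue squares the 2 control arrays, asterisks mark an adjusted p under 0.05 and the dotted line is the lower quartile of all probes, 6.79. For Cdh2, Pcdh10 and Pcdh19 the circles lie left of the squares by more than the spread within either group; positions of different genes are not comparable as levels.

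Delta-2 protocadherins gave 2 of the 4 falls. These proteins bind actin regulators through their cytoplasmic tails and act in cell movement and axon outgrowth. Of the 5 measured genes, Pcdh19 and Pcdh10 fell, 4 read lower on both Bmp4 OE arrays than on both controls and 1 read higher, with a median log2 fold change of -0.44. Over all named genes 9.54% fell and 32.3% read lower on both Bmp4 OE arrays, and with 5 genes the comparison of shares is a description only. Pcdh19, which lies on chromosome X and is the gene of a human epilepsy, read 8.79 and 8.77 in Bmp4 OE, against 9.74 and 9.61 in control. It was 1.86-fold lower, with a log2 fold change of -0.895, a standard error of 0.107 and a 95% interval of -1.161 to -0.629 (limma, adjusted p = 0.011). Pcdh10, or OL-protocadherin, read 9.41 and 9.55 in Bmp4 OE, against 10.14 and 10.16 in control. It was 1.59-fold lower, with a log2 fold change of -0.67 ± 0.108 standard error (adjusted p = 0.0202 in limma). Each of the 2 genes was read by 1 probe, and in both the gap between groups was several times the spread within them.

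Pcdh8, or paraxial protocadherin, which acts in somite formation and in gastrulation movements of frog and fish, read 6.38 and 6.41 in Bmp4 OE, against 6.92 and 6.75 in control (log2 fold change -0.44, limma adjusted p = 0.0554). It lay just outside the threshold, and both its Bmp4 OE arrays and 1 control array read below the lower quartile of 6.79, where differences are compressed. Pcdh18 read 11.42 and 11.43 in Bmp4 OE, against 11.71 and 11.61 in control (log2 fold change -0.235, limma adjusted p = 0.183). Pcdh17 was the exception in sign, with 6.23 and 6.32 in Bmp4 OE, against 6.06 and 6.19 in control, all below the lower quartile of the arrays (limma adjusted p = 0.398).

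The 3 measured delta-1 protocadherins, which bind protein phosphatase through a conserved tail motif, did not pass. Pcdh7, or NF-protocadherin, read 10.79 and 10.83 in Bmp4 OE, against 10.59 and 10.71 in control (limma adjusted p = 0.352). Pcdh9 read 9.22 and 9.49 in Bmp4 OE, against 9.06 and 9.09 in control (limma adjusted p = 0.197), and its second probe gave 9.25 and 9.10 in Bmp4 OE, against 8.78 and 8.59 in control (limma adjusted p = 0.0536). Pcdh1 went the other way, with 6.92 and 6.43 in Bmp4 OE, against 7.10 and 7.02 in control (limma adjusted p = 0.201). All 3 separated the groups on their brightest probe, by amounts that did not pass the test. Such separation was common: 31.0% of all named genes read higher and 32.3% lower on both Bmp4 OE arrays.

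Among 3 other non-clustered protocadherins, Pcdh20 rose (33.3% called, against 16.9% of all genes, a description only with so few genes). It read 8.24 and 8.30 in Bmp4 OE, against 7.78 and 7.40 in control, 1.60-fold higher with a log2 fold change of 0.68 ± 0.152 standard error (adjusted p = 0.0414 in limma). Its second probe had the opposite sign, with 7.27 and 7.33 in Bmp4 OE, against 8.04 and 7.54 in control (limma adjusted p = 0.126), so the rise of Pcdh20 is uncertain. Pcdh12, or VE-cadherin-2, a protocadherin of endothelium, split in the same way. Its brightest probe read 9.66 and 9.65 in Bmp4 OE, against 9.04 and 9.46 in control (limma adjusted p = 0.148), and the second 8.49 and 8.71 in Bmp4 OE, against 9.07 and 8.94 in control (limma adjusted p = 0.0862). Over 9 measured endothelial markers the mean log2 intensity was 9.91 and 9.91 in Bmp4 OE, against 9.65 and 9.63 in control. Of these, 8 had a positive log2 fold change, and 7 read higher on both Bmp4 OE arrays than on both controls, as 31.0% of all named genes did. Cldn5 rose and 8 did not pass. Cdh5, the VE-cadherin of endothelium, was the only marker of the list with a negative log2 fold change, -0.06. The part of endothelium in the Pcdh12 values was not tested. Pcdh15, a partner of Cdh23 in the tip link, overlapped between groups (limma adjusted p = 0.64).

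**Figure D3:**
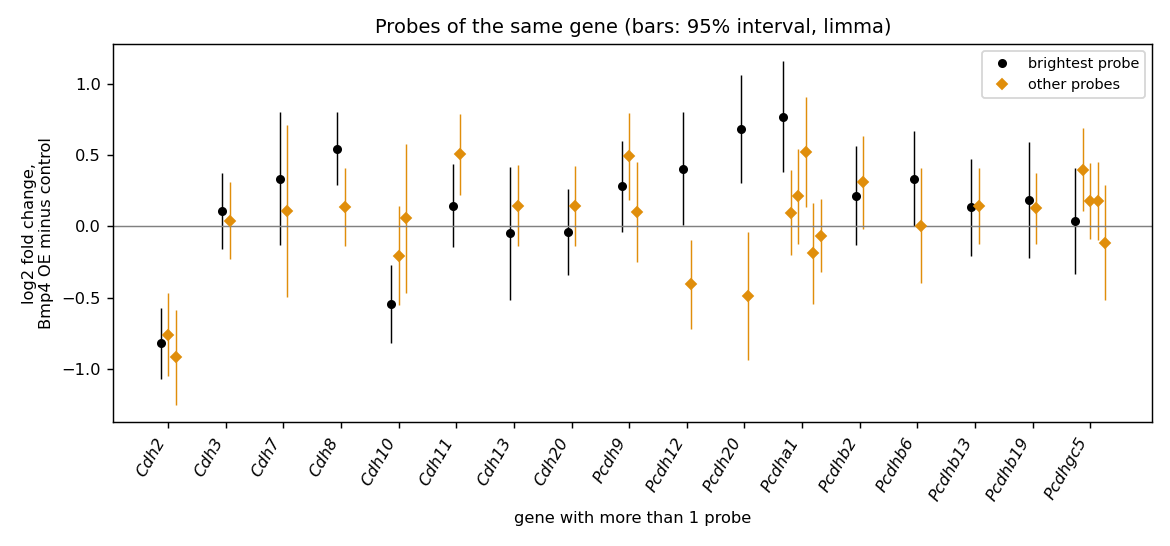
Log2 fold change, Bmp4 OE minus control, of every probe of the 17 members with more than 1 probe. Black circles are the brightest probe, orange diamonds the other probes and bars 95% intervals of limma. The 3 Cdh2 probes lie together below 0, and for Pcdh12 and Pcdh20 the brightest probe lies above 0 and the other below it.

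Promoter windows from the RefSeq table (build GRCm38.p6, 300 bases each, 250 before and 50 after a gene's start) are shown for the 2 delta protocadherins that fell, Pcdh10 and Pcdh19, and for Pcdh20 and Cdh26, which rose. The authors' probes were not mapped to this build. Capitals mark CCAAT or its complement ATTGG, the box bound by NF-Y, and GGGCGG or its complement CCGCCC, the GC box, read on both strands; these motifs do not overlap each other here.
Pcdh10, chr3:45378148-45378447, plus strand: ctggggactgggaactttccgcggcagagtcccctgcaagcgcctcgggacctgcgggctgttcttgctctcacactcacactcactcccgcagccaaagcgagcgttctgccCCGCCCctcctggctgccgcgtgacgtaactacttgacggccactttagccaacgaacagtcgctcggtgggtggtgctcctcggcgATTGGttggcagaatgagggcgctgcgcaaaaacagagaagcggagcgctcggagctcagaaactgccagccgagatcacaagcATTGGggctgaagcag
Pcdh19, chrX:133688944-133689243, minus strand: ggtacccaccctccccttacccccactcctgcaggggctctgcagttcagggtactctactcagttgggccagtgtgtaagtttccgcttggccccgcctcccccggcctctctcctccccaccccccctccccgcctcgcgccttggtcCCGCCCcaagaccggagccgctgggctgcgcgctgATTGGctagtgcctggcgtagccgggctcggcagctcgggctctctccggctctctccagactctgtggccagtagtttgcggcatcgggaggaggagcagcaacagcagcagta
Cdh26, chr2:178430265-178430564, plus strand: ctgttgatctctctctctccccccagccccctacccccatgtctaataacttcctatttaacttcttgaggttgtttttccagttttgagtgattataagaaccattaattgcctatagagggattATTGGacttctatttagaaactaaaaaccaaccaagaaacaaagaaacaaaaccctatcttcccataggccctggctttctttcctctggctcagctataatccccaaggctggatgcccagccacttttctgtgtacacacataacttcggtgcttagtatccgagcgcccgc
Pcdh20, chr14:88471347-88471646, minus strand: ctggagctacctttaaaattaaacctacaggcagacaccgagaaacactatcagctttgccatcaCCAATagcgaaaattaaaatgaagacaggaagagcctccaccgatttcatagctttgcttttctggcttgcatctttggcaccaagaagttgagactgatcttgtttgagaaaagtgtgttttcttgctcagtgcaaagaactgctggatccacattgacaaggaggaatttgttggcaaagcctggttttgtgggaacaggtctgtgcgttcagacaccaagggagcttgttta

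The windows of the genes that fell were richer in G and C, at 62.3% for Pcdh10 and 67.7% for Pcdh19, than those of the genes that rose, at 44.0% for Cdh26 and 43.7% for Pcdh20, beside a median of 52.7% over all windows. With 2 windows on each side this is a description only, and among the other called genes with a window Cdh10, which fell, had 37.7% and Cdh8, which rose, had 62.3%. Each of the 4 windows held CCAAT, 50 bases before and 34 bases after the start in Pcdh10, 65 before it in Pcdh19, 124 before it in Cdh26 and 185 before it in Pcdh20. GGGCGG stood 137 bases before the start of Pcdh10 and 100 before that of Pcdh19. Cdh8, which rose, also held both motifs, CCAAT 19 bases and GGGCGG 80 bases before its start. The window of Cdh10, which fell, held neither of them. CCAAT was held by 17 of 24 windows of 21 matched members (70.8%), against 37.4% of all 32851 windows, and GGGCGG by 9 (37.5%), against 35.7%. Neither GGCGCC, a motif bound by SMAD proteins, nor CAGGTG with its complement CACCTG, the E-box bound by Snail and ZEB factors, was in the 4 printed windows. Over all member windows GGCGCC was in 2 (8.33%, against 11.9% of all windows) and CAGGTG in 5 (20.8%, against 20.2%). The motifs were chosen after the sequences had been seen, and a match is not a site of binding.

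Clustered protocadherins lie in an alpha, a beta and a gamma group one after the other, and each gene's first exon has its own promoter. In the alpha and gamma groups these first exons are spliced to constant exons that all isoforms of a group share, and the beta genes have a single coding exon each. A probe named Pcdha1, Pcdhga2 or Pcdhgc5 may read an exon shared by its group, and beta genes resemble each other closely. The gene read by such a probe is therefore uncertain. Of 24 measured genes 2 rose and 0 fell, which is 8.33% called, against 16.9% of all genes. All 24 lie on chromosome 18 in the RefSeq annotation, as do Cdh2, Pcdh1 and Pcdh12, which makes 27 members in all. Signs leaned upward: 19 had a positive log2 fold change and 5 a negative one, with a median of 0.20.

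Pcdhga2, a gamma gene, rose most of all members. It read 9.93 and 10.45 in Bmp4 OE, against 8.84 and 9.21 in control, and its lower Bmp4 OE array still lay above its higher control. The difference was 2.24-fold, with a log2 fold change of 1.165, a standard error of 0.215 and a 95% interval of 0.629 to 1.701 (limma, adjusted p = 0.0271). Pcdha1, at the other end of the clusters, read 10.17 and 10.21 in Bmp4 OE, against 9.22 and 9.62 in control (1.71-fold higher, log2 fold change 0.77 ± 0.156 standard error, adjusted p in limma = 0.0332). Pcdha1 had 6 probes, of which 4 were positive and the brightest alone passed; the nearest of the others read 7.78 and 7.78 in Bmp4 OE, against 7.06 and 7.46 in control (limma adjusted p = 0.0798). Pcdhgc5, the last gene of the gamma group, overlapped on its brightest probe, with 7.92 and 8.20 in Bmp4 OE, against 8.15 and 7.90 in control (limma adjusted p = 0.899). Among its 5 probes 4 were positive and 0 passed.

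In the beta group 0 of 21 genes passed limma's adjusted threshold, and 4 (19%) had an unadjusted p under 0.05, against 36.4% of all named genes. In 16 genes the log2 fold change was positive and in 5 negative, from -0.34 to 0.65 with a median of 0.185. Both Bmp4 OE arrays lay above both controls in 9 genes (31.0% of all named genes did so) and below them in 1 (32.3% of all named genes), and the groups overlapped in 11. Pcdhb17 had the highest log2 fold change, with 9.46 and 9.94 in Bmp4 OE, against 8.98 and 9.12 in control (log2 fold change 0.65, limma adjusted p = 0.0666). Pcdhb10 was similar, with 8.62 and 8.32 in Bmp4 OE, against 7.76 and 8.02 in control (log2 fold change 0.58, limma adjusted p = 0.0618). Pcdhb22, the beta gene next to the gamma group, had 10.15 and 10.18 in Bmp4 OE, against 9.88 and 9.82 in control (log2 fold change 0.315, limma adjusted p = 0.0941). These 3 lay on different parts of the cluster, and Pcdhb9 beside Pcdhb10 was the beta gene with both Bmp4 OE arrays lower, at 6.56 and 6.46, against 6.95 and 6.75 in control (limma adjusted p = 0.114). The 4 genes Pcdhb1, Pcdhb5, Pcdhb7 and Pcdhb14 had both group means below the lower quartile of the arrays, where differences are compressed.

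**Figure D4:**
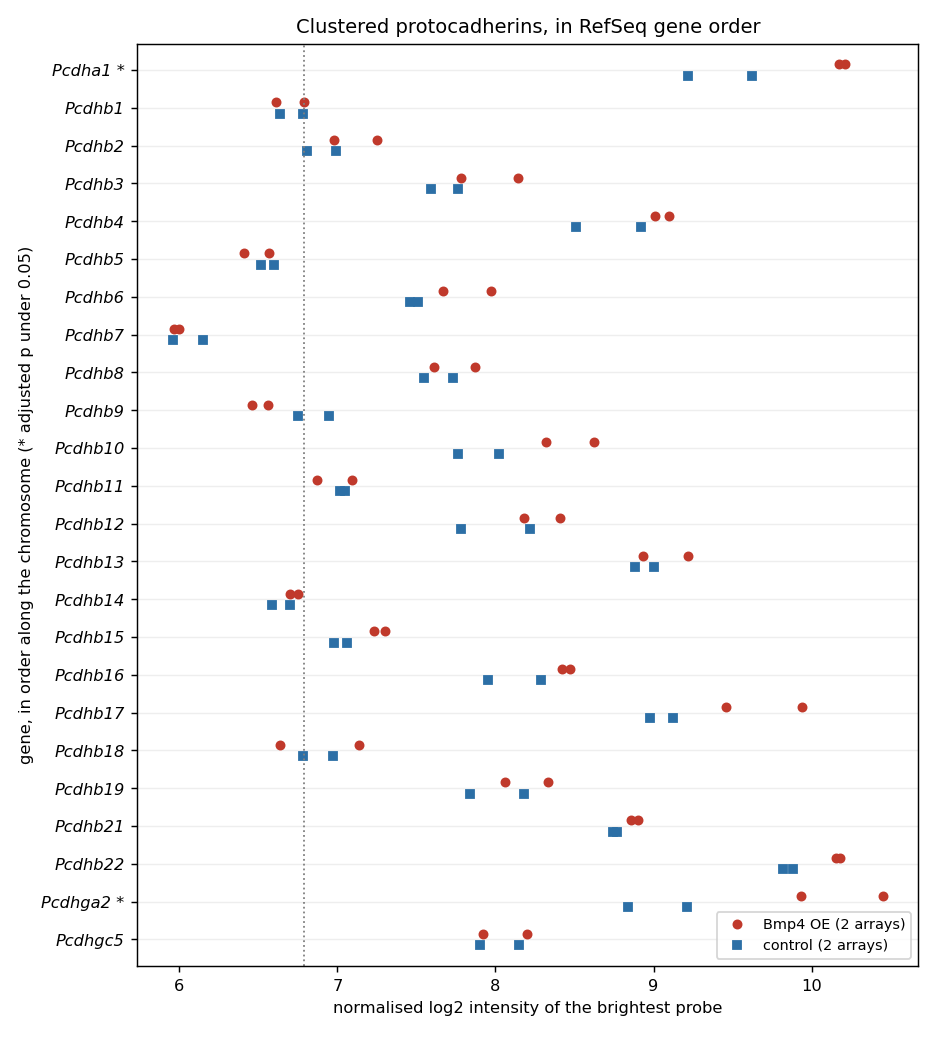
Normalised log2 intensity of the brightest probe of the 24 clustered protocadherins, listed down the page in the order of the RefSeq annotation from the alpha through the beta to the gamma group. Red circles are the 2 Bmp4 OE arrays, blue squares the 2 controls, and asterisks mark an adjusted p under 0.05. Circles lie right of both squares in 11 genes and left of them in Pcdhb9, and the called genes are Pcdha1, first in the row, and Pcdhga2, next to last.

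Neurons, where clustered protocadherins are best known, were read through 9 measured markers, whose mean was 8.69 and 8.63 in Bmp4 OE, against 8.53 and 8.44 in control. Dcx, a microtubule protein of young neurons, rose, at 0.925 on the log2 scale (limma adjusted p = 0.00908), and Nefm, a neurofilament subunit, fell, at -0.555 (limma adjusted p = 0.0336), while 7 did not pass. Of 8 mural cell markers 3 rose and 1 fell, with a mean of 9.82 and 9.83 in Bmp4 OE, against 9.18 and 9.15 in control. Rgs5, a regulator of G-protein signalling in pericytes, rose 7.73-fold (limma adjusted p = 0.00161), and without it the mean was 9.86 and 9.90 in Bmp4 OE, against 9.58 and 9.53 in control. Kcnj8 and Acta2 also rose, and Pdgfrb, the receptor of pericyte precursors, fell, at -0.515 on the log2 scale (limma adjusted p = 0.0446). Abcc9 did not pass on its brightest probe (log2 fold change 0.155) but rose on its second (1.21, limma adjusted p = 0.0102). Of 7 measured blood markers 0 rose and 2 fell, with a mean of 10.88 and 10.79 in Bmp4 OE, against 10.93 and 10.93 in control. The part of these cells in the protocadherin values was not tested.

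Of 21 catenins and cadherin linkers 1 rose and 1 fell (9.52% called, against 16.9% of all genes, median log2 fold change 0.00). Jup, or plakoglobin, the catenin of desmosomes and adherens junctions, read 13.79 and 14.23 in Bmp4 OE, against 12.79 and 13.12 in control (2.08-fold higher, limma adjusted p = 0.0265). A second, dim Jup probe had a log2 fold change of -0.16 that did not pass. Nectin2, an adhesion molecule that recruits cadherins to new junctions, read 8.61 and 8.71 in Bmp4 OE, against 9.46 and 9.45 in control (1.74-fold lower, limma adjusted p = 0.0131), and its second probe fell too (limma adjusted p = 0.0362). Ctnnd1 and Ctnna1, the catenins that hold cadherins at the membrane and link them to actin, had log2 fold changes of 0.885 and 0.505 that missed the threshold (limma, adjusted p = 0.0612 and 0.062). Ctnnb1, or beta-catenin, had one of 0.395 (limma adjusted p = 0.153).

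Transcription factors known to repress or tune cadherin genes moved in both directions, with 2 rises and 2 falls among 10, or 40.0% called, against 16.9% of all genes. This share is a description only, since the list is short and was chosen with earlier results of these data known. Its genes were also bright, with a median of mean intensities of 11.81, against 8.725 over all named genes. Snai1, a repressor of Cdh1, read 11.83 and 11.68 in Bmp4 OE, against 10.68 and 10.95 in control (1.92-fold higher, limma adjusted p = 0.0159). Zeb2, of the ZEB repressors, read 12.31 and 12.18 in Bmp4 OE, against 11.35 and 11.44 in control (1.80-fold higher, limma adjusted p = 0.0129), and a second probe rose as well (limma adjusted p = 0.026). Both of these rises stood beside a rise of Cdh1. Twist1, a bHLH factor of head mesenchyme, read 13.12 and 13.29 in Bmp4 OE, against 14.40 and 14.38 in control (2.27-fold lower, limma adjusted p = 0.00667). Tcf4, another bHLH factor, read 13.75 and 13.21 in Bmp4 OE, against 14.59 and 14.60 in control (2.17-fold lower, limma adjusted p = 0.0228). The fall of Twist1 stood beside that of Cdh2, and no relation between them was tested.

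A list of 21 measured genes held other members of the cadherin superfamily and Fjx1, which is not itself a cadherin. Of these, 2 rose and 2 fell, Fjx1 among the falls (19% called, near the 16.9% of all genes, median log2 fold change 0.05). Fjx1, a Golgi kinase-like relative of the factor that tunes Fat and Dachsous binding in fly, fell 1.71-fold, and Celsr1, a planar polarity cadherin, fell 1.34-fold (limma, adjusted p = 0.0165 and 0.0477). Cdhr5, a cadherin of the intestinal brush border, rose 1.45-fold (limma adjusted p = 0.0396). Clstn1, a calsyntenin, gave opposite calls from its 2 probes, a log2 fold change of 0.695 on the brighter and of -0.81 on the dimmer (limma, adjusted p = 0.0355 and 0.0143). Among 19 genes that act downstream of protocadherins or at their clusters 1 rose and 2 fell (15.8% called, also near that share). Cyfip1 rose 1.91-fold and Cyfip2 fell 1.68-fold; both encode subunits of the WAVE complex, which delta-2 tails bind (limma, adjusted p = 0.0461 and 0.014). Smchd1, a chromatin protein that acts at the protocadherin clusters in mouse, fell 1.49-fold on its brightest probe (limma adjusted p = 0.0361). Its other probes had the opposite sign, with log2 fold changes of 0.16 and 0.26 that did not pass. Of 13 genes for cadherin shedding and turnover 0 passed limma's adjusted threshold. Furin, which cuts the cadherin propeptide, was the 1 gene there with an unadjusted p under 0.05 (log2 fold change 0.455, limma adjusted p = 0.0507).

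**Figure D5:**
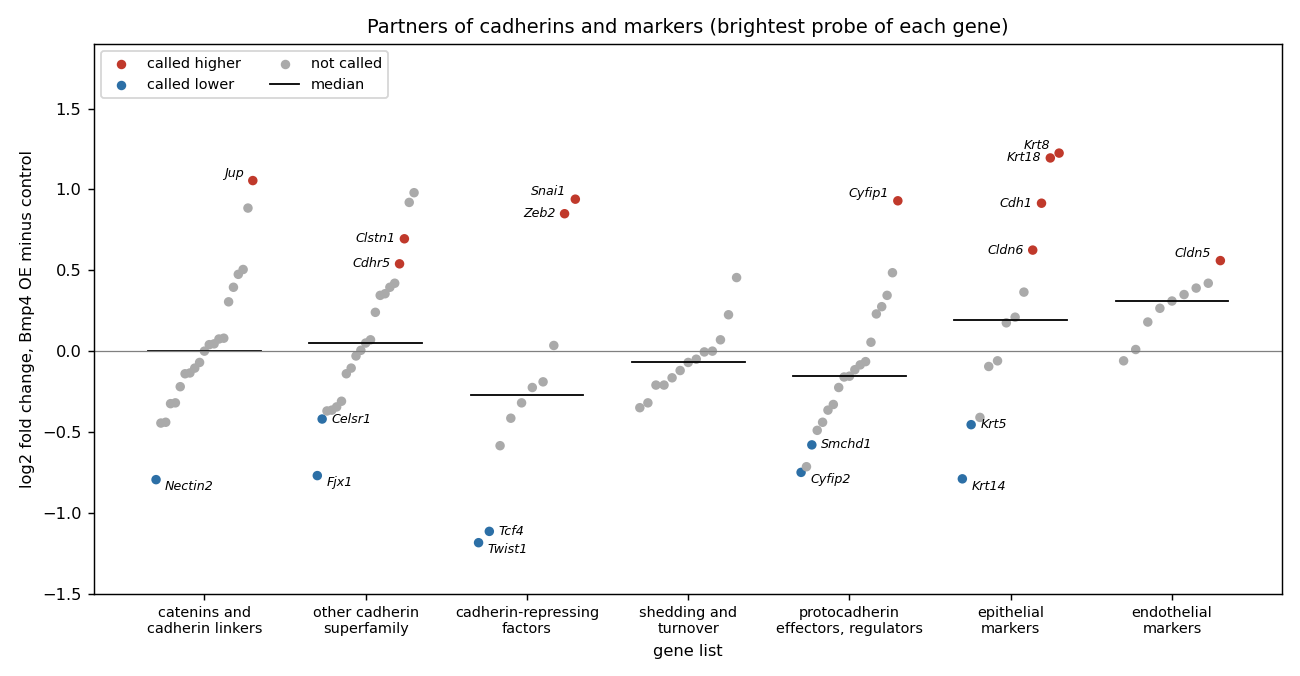
Log2 fold change, Bmp4 OE minus control, of the brightest probe of each gene in 5 lists of cadherin and protocadherin partners and 2 lists of markers. Red points rose, blue points fell and grey points did not pass an adjusted p of 0.05, and short black lines are list medians. The called points of the repressing factors lie on both sides of 0, with Twist1 at -1.185 and Snai1 at 0.94.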

How the data were processed

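Per the labels' protocols, RNA from E11.5 mandibles was amplified with aminoallyl nucleotides, labelled with Cy5 and read on 1 array per sample. The deposited table holds 1 log2 intensity for each of 29922 probes on 4 arrays. The sorted deposited columns were identical (largest difference 0), so the log2 values were quantile-normalised between arrays before deposit, and a shift of most genes at once cannot be seen. How the arrays were scanned and background-corrected is not given in the sources used here. The number of arrays, 2 in each group, limits the precision.

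Probes were named from GEO's platform annotation: 21020 bore a single symbol, 0 more than one and 8902 no symbol. Against the RefSeq gene table of GRCm38.p6, 17558 symbols were current, 3410 were older names brought up to date and 52 found no match. Promoter windows came from RefSeq, and no protein sequence was used. Probe positions were not used here.

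The test was limma 3.58.1, run under R 4.3.3 for every probe (two-sided, lmFit followed by eBayes, no filter, no covariate, prior degrees of freedom 3.59), adjusted by Benjamini-Hochberg over all 29922 probes. Tested on simulated data for this comparison, with 200 of 29922 probes changed in 10 runs, the fit recovered 94.9% of probes changed by 2 log2 units, 31.6% of those changed by 1 and 0.152% of those changed by 0.5. The real data hold many more changes, which makes the adjusted threshold less strict than in the simulation.

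The members and lists were chosen with earlier results of these data known. Named were every member past the adjusted threshold or with a log2 fold change of at least 1 in size, every measured classical cadherin, Bmp4, and up to 4 genes with the smallest p in each partner or marker list. Further members, among them Pcdh8, Pcdh18, Pcdh7, Pcdh9, Pcdh12, Pcdhb10, Pcdhb17 and Pcdhb22, were named after their values were seen. So were Ctnnb1, Cdh5, Abcc9 and the Jup, Clstn1, Smchd1 and Abcc9 probes beside the brightest. The markers Cldn6, Krt5, Epcam and Vim were also named outside the rule of smallest p. Alternatives were a replicate block, each array left out, median centring, an added 50 on the linear scale, a filter at the lower quartile or the median of mean intensity, a variance trend, the mean of a gene's probes and the study's threshold.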

Additional observations from a re-analysis of the deposited data

How the results depend on the processing

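Of the 9 called members 5 had several probes, and the calls of Cdh8, Cdh10, Pcdh20 and Pcdha1 depended on the choice of probe. Cdh2 was called on every probe, and the remaining called members had a single probe each. With the replicate block in limma 0 members were called higher and 0 lower (lowest adjusted p 0.0745, 17 members at an unadjusted p under 0.05). That fit also keeps only 1 residual degree of freedom, so its counts do not show whether a call holds. Across probes, the difference between the 2 Bmp4 OE arrays and that between the 2 controls correlated with r = -0.0711. Same-numbered arrays thus showed no strong shared shift, but this cannot tell whether they were handled as pairs. With each array left out in turn the fits keep 1 residual degree of freedom, so counts from them do not show whether a call holds. After adding 50 on the linear scale the same 9 genes were called, and with a variance trend Pcdh8 was added to them. Without probes below the lower quartile 8 remained, and without those below the median, which takes away most dim genes, 5 remained, 2 of them higher. At the study's threshold 1 member was higher and 0 lower. With the mean of all probes 8 were called, of which 5 were shared: Cdh8, Cdh10, Pcdh20 and Pcdha1 were lost and Pcdh8, Pcdhb10 and Pcdhb17 gained. Among members whose probes all had 1 sign, a choice made after seeing the data, 3 were called higher (Pcdhga2, Cdh26 and Cdh8), and Cdh2, Pcdh10 and Pcdh19 were called lower. Members with a single probe meet this rule by definition, so for Pcdhga2, Cdh26, Pcdh10 and Pcdh19 it tests nothing. The mean of all probes turned the sign of Cdh13 (0.0475) and Cdh20 (0.0525), whose log2 fold changes were near 0, and of Clstn1 (-0.0575), whose 2 probes were called in opposite directions. With arrays left out in turn Cdh13 ranged from -0.305 to 0.205, Cdh18 from -0.04 to 0.22, Cdh20 from -0.155 to 0.075, Cdh4 from -0.105 to 0.055 and Pcdhgc5 from -0.105 to 0.175. The cause of these last turns was not tested. Median centring changed no value, since the deposited columns share 1 distribution, and so tests nothing. Both group means of 7 of the 54 members lay below the lower quartile of 6.79, where the arrays resolve little, and 45 members had an overall mean at or above it.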
